A study of Mus musculus with 8 samples.

Results

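Slc18a2, Th, Ddc and Gch1, the genes for vesicular monoamine transport and dopamine synthesis, were followed in the lateral ganglionic eminence (LGE) of mouse embryos labelled Gsx2 KO or wild type. They were taken by symbol from the deposited table, which held all 4 of them among 12843 genes, and they had been chosen by their lower RPKM in Gsx2 null libraries, so that difference is described below without a test. The tissue was dissected at E12.5 (embryonic day) from embryos of crosses between carriers of the alleles Gsx2RA and Gsx2EGFP, with tails used for genotyping. There were 4 libraries labelled Gsx2 KO, with the genotype Gsx2EGFP/Gsx2RA, called Gsx2 null here, and 4 libraries labelled wild type. Gsx2 is a homeobox gene active in progenitor cells of the LGE. The labels leave unstated what each allele changes and how many embryos went into a library, so p-values, SDs and SEs measure only the spread between these libraries, which may be technical. Recovered reads in listed genes numbered 16066545 to 18019214 per null library and 16031458 to 17512880 per wild-type library.

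VMAT2, the product of Slc18a2, loads dopamine, noradrenaline, serotonin and histamine into vesicles. Tyrosine hydroxylase, from Th, turns tyrosine into L-DOPA and is the rate-limiting step of catecholamine synthesis. Aromatic L-amino acid decarboxylase, from Ddc, turns L-DOPA into dopamine and 5-hydroxytryptophan into serotonin. GTP cyclohydrolase, from Gch1, starts the synthesis of tetrahydrobiopterin, the cofactor that tyrosine hydroxylase needs. The LGE gives rise to striatal neurons and to interneurons of the olfactory bulb, some of which are dopaminergic in the adult, while the dopamine that reaches the striatum is made by neurons of the midbrain.

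The 4 genes lie on different chromosomes. In GENCODE M21 (GRCm38, the genome that mm10 names), Slc18a2 (ENSMUSG00000025094.8) spans 59260896 to 59296012 on the plus strand of chromosome 19, Th (ENSMUSG00000000214.11) 142892752 to 142931128 on the minus strand of chromosome 7, Ddc (ENSMUSG00000020182.16) 11814101 to 11898144 on the minus strand of chromosome 11, and Gch1 (ENSMUSG00000037580.10) 47153895 to 47189413 on the minus strand of chromosome 14. Their promoters are described next. That all 4 genes were lower in null was fixed by their choice and is no result about promoters. RefSeq windows (GRCm38.p6) were held for all 4 genes, with 2 for Ddc. The starts used are those of these windows, and the Th window lies inside the GENCODE span above, not at its upstream end. The letters TGACG, part of the cAMP response element, were found on either strand in the windows of Slc18a2, Th and Gch1 and in neither window of Ddc. The sequences run from 150 bases before the annotated start to 10 bases after it, 5′ to 3′ along the gene, with matches to TGACG on either strand in capitals. They are chr19:59260728-59260887 on the plus strand, chr7:142899986-142900145 on the minus strand and chr14:47189404-47189563 on the minus strand.
Slc18a2: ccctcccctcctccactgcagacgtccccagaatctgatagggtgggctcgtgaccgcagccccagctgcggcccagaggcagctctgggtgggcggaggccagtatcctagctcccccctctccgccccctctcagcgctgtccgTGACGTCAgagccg
Th: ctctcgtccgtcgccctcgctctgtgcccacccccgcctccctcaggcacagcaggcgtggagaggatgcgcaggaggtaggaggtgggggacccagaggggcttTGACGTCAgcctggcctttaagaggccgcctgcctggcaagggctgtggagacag
Gch1: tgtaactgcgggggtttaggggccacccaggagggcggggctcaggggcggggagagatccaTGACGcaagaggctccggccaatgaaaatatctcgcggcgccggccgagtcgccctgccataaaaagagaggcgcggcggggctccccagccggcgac
In Slc18a2 and Th matches on both strands overlapped to give the palindrome TGACGTCA, whose first base stands 4 bases before the start of Slc18a2 and 45 bases before that of Th. The match of Gch1 begins 88 bases before its start and is TGACG alone. Among 27025 genes with a window of 300 bases, 21.0% held TGACG and 1.88% held TGACGTCA; among the 8751 of them tested here the shares were 33.5% and 3.69%. The palindrome was counted after these windows had been seen. TAATTA, the core of many homeodomain sites, was in none of the 5 windows and in 5.31% of all genes' windows (2.17% of tested genes'). CAGCTG, an E-box (16.1% of all and 14.3% of tested genes), was in the Slc18a2 window. AAGGTCA, a core nuclear receptor site (4.66% and 2.71%), was in 1 Ddc window, where it overlaps a match to TATAAA (14.2% and 5.95%), and TATAAA was also in the Gch1 window, before the stretch printed here. These are matches of letters and say nothing of what binds there.

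Levels are deposited RPKM, which scale reads by gene length and by library size, so they can be compared between genes. In all 8 libraries the order was Slc18a2, Th, Ddc, Gch1, from the highest to the lowest. In the null libraries Slc18a2 ranked above 34.1% of listed genes and Gch1 above 2.16%; in wild type Slc18a2 ranked above 89.3% and Gch1 above 8.85%. Transporter RNA in the wild-type LGE was thus 10.2 times that of Th when the means are compared. All 4 genes were lower in every null library than in any wild-type library. Across all listed genes 15.2% were lower in this way, and across the genes tested 16.4% were lower and 30.9% stood apart in either direction. All 4 means were also at least 2-fold lower, as were 1.99% of all listed genes. These shares are background only, because the same contrast chose the 4 genes. A tissue sample cannot tell fewer cells of a type apart from less RNA in each cell, and this holds for every result below.

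**Figure D1:**
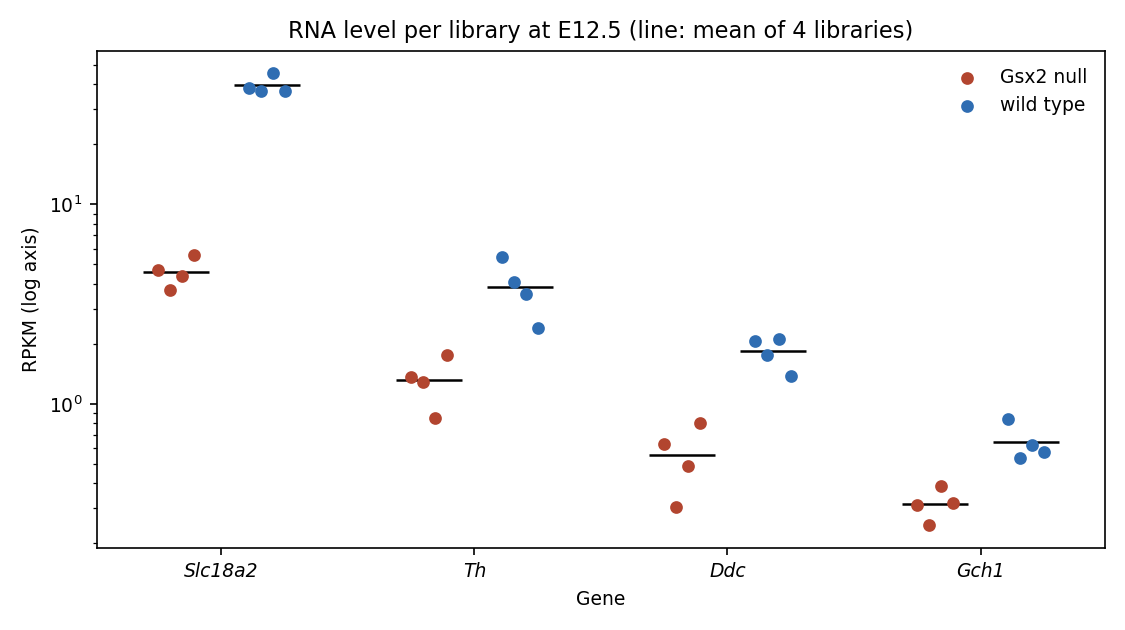
RPKM of the 4 monoamine genes in each library, on a log axis; points are libraries, with Gsx2 null left of wild type for each gene, and lines are means of 4. The null libraries sit below all wild-type libraries for each gene, by the widest margin for Slc18a2.

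Slc18a2, the transporter gene, had 4.69, 3.72, 4.36 and 5.60 RPKM in null libraries 5, 6, 11 and 12, against 38.3, 37.1, 45.3 and 37.2 RPKM in wild-type libraries 1, 2, 7 and 8. The lowest wild-type library was 6.63 times the highest null library. The means were 4.596 ± 0.785 RPKM in null and 39.5 ± 3.94 RPKM in wild type (SD, n = 4 each), which is 8.59-fold lower in null. On the scale of log2(RPKM + 1) the difference, null minus wild type, was -2.86 ± 0.10 (SE), the 4th lowest of 11395 genes tested. That rank holds for this scale and is a description only, because the same contrast chose Slc18a2. This gene was also the deepest of the 4, with 311 to 457 reads in the null and 3036 to 4022 in the wild-type libraries. Its transcription start lies under an antisense gene model, Gm29261, which covers part of its exons. The strand setting of the read counting is unknown here, so reads of the pair cannot be told apart.

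Th, the gene of the rate-limiting enzyme, had 1.37, 1.29, 0.850 and 1.75 RPKM in null libraries 5, 6, 11 and 12, against 5.42, 4.09, 3.54 and 2.41 RPKM in wild-type libraries 1, 2, 7 and 8. The groups did not overlap but came close, since wild-type library 8 was 1.38 times null library 12. Th averaged 1.32 ± 0.370 RPKM in null and 3.87 ± 1.25 RPKM in wild type (SD, n = 4 each), or 2.94-fold lower in null, with a log2(RPKM + 1) difference of -1.05 ± 0.18 (SE). It was the most variable of the 4 among wild-type libraries, with a coefficient of variation of 32.3%, where read counting alone at that depth would give 8.13%.

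Ddc, the decarboxylase gene, had 0.630, 0.305, 0.490 and 0.804 RPKM in null libraries 5, 6, 11 and 12, against 2.07, 1.76, 2.11 and 1.38 RPKM in wild-type libraries 1, 2, 7 and 8. Every null library was below every wild-type library, the nearest pair being 1.72-fold apart. The means were 0.557 ± 0.212 RPKM in null and 1.83 ± 0.339 RPKM in wild type (SD, n = 4 each), 3.29-fold lower in null, and the log2(RPKM + 1) difference was -0.87 ± 0.12 (SE). These levels rest on 14 to 36 reads per null library and 62 to 103 per wild-type library. The antisense model 1700042O10Rik overlaps Ddc, so its reads cannot be told apart from those of Ddc if strand was not used.

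Gch1, at the entry to cofactor synthesis, had 0.312, 0.247, 0.386 and 0.321 RPKM in null libraries 5, 6, 11 and 12, against 0.841, 0.536, 0.621 and 0.573 RPKM in wild-type libraries 1, 2, 7 and 8. Wild-type library 1 was the highest and null library 6 the lowest, and the groups were apart by a factor of 1.39 at their nearest. Gch1 averaged 0.316 ± 0.0569 RPKM in null and 0.643 ± 0.136 RPKM in wild type (SD, n = 4 each), 2.03-fold lower in null, from 15 to 25 reads per null library and 33 to 51 per wild-type library. With under 1 RPKM in both genotypes it was the gene that did not pass the filter on low values, which the other 3 passed. Fitted without that filter, its log2(RPKM + 1) difference was -0.32 ± 0.08 (SE).

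The constant of 1 RPKM compresses the differences of the 3 enzyme genes, which are low. In the authors' deposited table the log2 fold changes, null over wild type, were -3.10 for Slc18a2, -1.54 for Th, -1.71 for Ddc and -1.004 for Gch1. The order of Th and Ddc is thus opposite in the authors' deposited table and on the log2(RPKM + 1) scale, and only Slc18a2 stands well apart from the rest in both.

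The transporter gene was lower by a larger factor than the enzyme genes, and their ratio within each library shows this without scaling between libraries. The ratio of Th to Slc18a2 RPKM was 0.292, 0.348, 0.195 and 0.313 in null libraries 5, 6, 11 and 12, against 0.142, 0.110, 0.0780 and 0.0649 in wild-type libraries 1, 2, 7 and 8. All null ratios were above all wild-type ratios. These ratios come from the same RPKM that chose the genes, so they are a description and no separate test. The ratio of Ddc to Slc18a2 ran from 0.0820 to 0.143 in null and from 0.0372 to 0.0541 in wild type, and that of Gch1 to Slc18a2 from 0.0572 to 0.0884 in null and from 0.0137 to 0.0220 in wild type. Between the enzymes the groups overlapped, with a ratio of Ddc to Th of 0.236 to 0.577 in null and 0.382 to 0.597 in wild type. In the order of levels, neighbours overlapped in null only, where Ddc (0.305 to 0.804 RPKM) and Gch1 (0.247 to 0.386 RPKM) shared part of their ranges; in wild type no neighbours did.

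**Figure D2:**
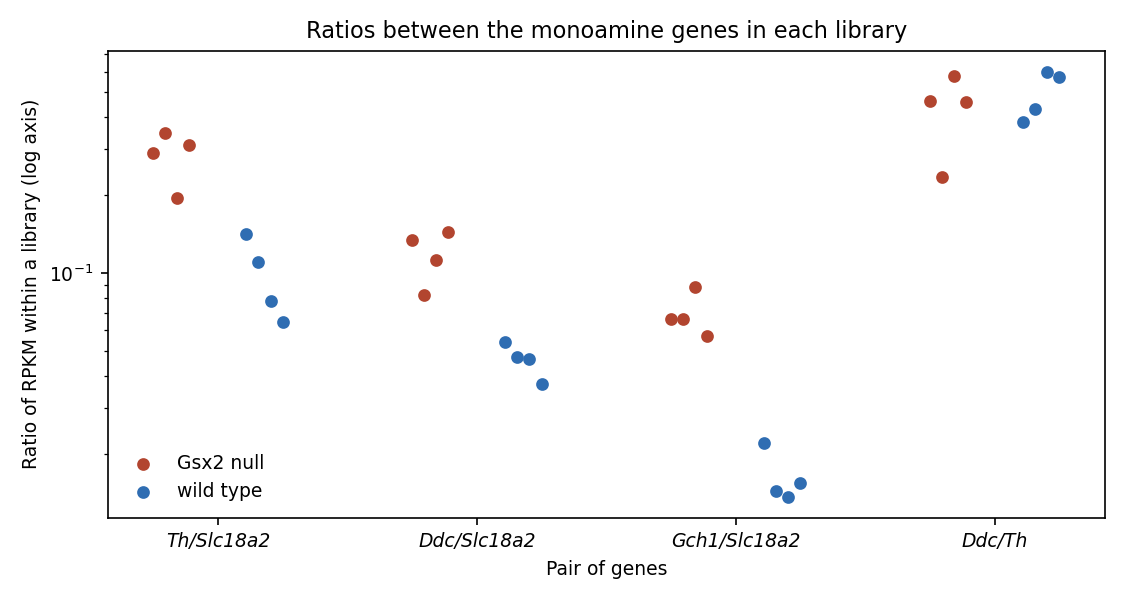
Ratio of RPKM between pairs of the monoamine genes within each library, on a log axis; points are libraries, with Gsx2 null left of wild type. Ratios to Slc18a2 are higher in every null library than in any wild-type library, while Ddc/Th overlaps (0.236 to 0.577 in null, 0.382 to 0.597 in wild type).

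Library numbers in the column names fall into 2 runs, up to 6 and above 6, whose meaning is in no label. Among libraries 1, 2, 5 and 6, Th averaged 1.33 RPKM in null and 4.75 RPKM in wild type, and among libraries 7, 8, 11 and 12 it averaged 1.30 RPKM in null and 2.98 RPKM in wild type. The null levels were close, and the wild-type levels were not. Slc18a2 was 8.96-fold lower in null within the lower numbers and 8.28-fold lower within the higher ones. The factors were 3.57 and 2.29 for Th, 4.10 and 2.70 for Ddc, and 2.46 and 1.69 for Gch1. Whether the genotype difference itself differed between the runs was tested by an interaction term in limma, which the choice of the genes had not used. The change in log2(RPKM + 1) difference, higher minus lower numbers, was 0.49 ± 0.30 (SE) for Th (limma adjusted p = 0.388), 0.27 ± 0.25 for Ddc (0.574), 0.08 ± 0.19 for Slc18a2 (0.838) and 0.16 ± 0.17 for Gch1 without the filter (0.639). None passed 0.05, and 0.0176% of all genes tested (2 genes) did. That count was 613 without library 2 and 41 without library 8, while with each library left out in turn the lowest limma adjusted p was 0.245 for Th, 0.433 for Ddc and 0.591 for Slc18a2.

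Over 8 libraries, the profile closest to that of Slc18a2 was that of Dlx5, a homeobox gene of subpallial cells. Closeness is the root mean square difference of log2(RPKM + 1) after each gene is centred on its own mean, and it was 0.11 for Dlx5, 0.18 for Sp8, a zinc finger factor gene, and 0.20 for Grik3, a kainate receptor subunit gene. Dlx5 stood at 7.42 ± 1.68 RPKM in null and 58.0 ± 5.02 RPKM in wild type (SD, n = 4 each). For Th the nearest were Scgn, the calcium-binding protein secretagogin (0.18), Slc10a4, a transporter-like protein of synaptic vesicles (0.19), and Fgd5, a guanine nucleotide exchange factor (0.19). Scgn stood at 0.336 ± 0.0987 RPKM in null and 2.09 ± 1.04 RPKM in wild type. Among 11394 genes Ddc ranked 8th for Th at 0.23, and Th 104th for Ddc at the same distance. The nearest to Ddc were Rgs8, a regulator of G protein signalling (0.11), Mir3078, a microRNA gene model (0.13), and Adarb2, a member of the RNA editing enzyme family (0.13). Genes with a similar genotype difference lie close by this measure. That difference chose the 4 genes, so closeness is a description only. Within 0.33 lay 12 genes for Slc18a2, 73 for Th and 773 for Ddc. Gch1 lay so low on this scale that 10002 genes were within 0.33 of it. Its nearest, Pttg1, Tiparp and U2af1, are named only for completeness.

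Of the 8 nearest tested neighbours of the 4 genes on their chromosomes, 5 fell, 0 rose and 3 did not pass, where 14.6% of all genes tested fell and 13.8% rose. Vax1, a homeobox gene of the ventral forebrain 90.8 kb before Slc18a2, stood at 5.53 ± 0.875 RPKM in null and 30.1 ± 3.04 RPKM in wild type and fell (log2 difference -2.26 ± 0.10, limma adjusted p = 8.08e-07). Pdzd8, which lies 1.17 kb after Slc18a2 on the other strand, stood at 11.3 ± 0.236 RPKM in null and 12.9 ± 0.762 RPKM in wild type (-0.18 ± 0.05, limma adjusted p = 0.0228). Pdzd8 was not called once library 2, 7, 11 or 12 was left out (limma adjusted p = 0.0515 to 0.0648), nor within either run of library numbers (0.210 and 0.0605). Beside Ddc, Grb10, an imprinted growth inhibitor, fell to 88.1 ± 6.70 RPKM in null, against 116 ± 11.9 RPKM in wild type (limma adjusted p = 0.00512), and Fignl1, an AAA ATPase gene, fell too (-0.43 ± 0.09, limma adjusted p = 0.00626). Beside Th, Igf2 stood at 7.64 ± 0.749 RPKM in null and 7.44 ± 1.19 RPKM in wild type (limma adjusted p = 0.801) and R74862 at 1.11 ± 0.119 and 1.08 ± 0.181 RPKM in null and wild type (limma adjusted p = 0.901). Beside Gch1, Wdhd1, a DNA replication gene, fell (-0.36 ± 0.06, limma adjusted p = 0.00200) and Samd4 had a difference of -0.01 ± 0.08 (limma adjusted p = 0.919).

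**Figure D3:**
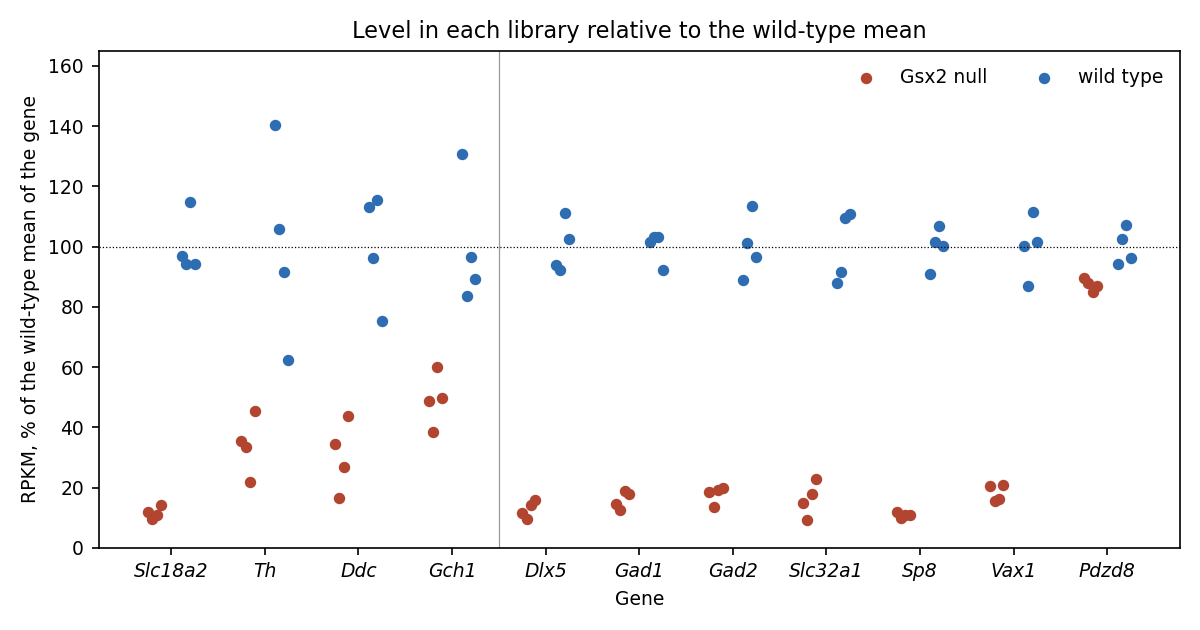
RPKM in each library as a percentage of the gene's wild-type mean, with Gsx2 null left of wild type; points are libraries. Slc18a2 (9.42% to 14.2% in null) overlaps Dlx5, Gad1, Gad2, Slc32a1 and Sp8, Vax1 lies at 15.5% to 21.0%, Th, Ddc and Gch1 lie between 16.6% and 60.1% in null, and Pdzd8, beside Slc18a2, lies at 85.0% to 89.4%.

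Markers of subpallial GABAergic cells moved in the same direction as the 4 genes. All 7 of these markers (Dlx1, Dlx2, Dlx5, Dlx6, Gad1, Gad2 and Slc32a1) fell, with a median log2 difference of -2.43, against -0.01 over all genes tested. Of all genes tested 14.6% fell and 13.8% rose. The summed level of the 7 markers was 44.0 to 73.9 RPKM in null and 469.5 to 562 RPKM in wild type. Slc18a2 kept 11.6% of its wild-type mean in null on average, Dlx5 12.8%, Gad1 16.0%, the vesicular GABA transporter gene Slc32a1 16.2% and Gad2 17.8%. The part of these cells in the lower level of Slc18a2 was not tested. In null, Th (34.1%), Ddc (30.4%) and Gch1 (49.2%) kept a larger mean share of their wild-type means than these markers. By library, Th (22.0% to 45.3%) and Ddc (16.6% to 43.9%) overlapped Slc32a1 (9.18% to 22.8%) in null, and Gch1 (38.4% to 60.1%) did not. Of the wider LGE markers 5 of 8 fell (among them Isl1, Six3 and Zfp503) and 1 rose, which was Gsx2 itself (55.2 ± 7.11 RPKM in null and 23.5 ± 2.16 RPKM in wild type), so RNA over the whole gene does not check the genotype labels.

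Other cells can also express these genes, mast cells and platelets Slc18a2 among them. Of the mast cell and platelet markers, Cpa3, Mcpt4 and Tpsb2 were not among the listed genes. Pf4 had 7 to 18 reads in null and 7 to 9 in wild-type libraries. The summed level of the 3 listed was 25.4 to 27.7 RPKM in null and 21.9 to 25.0 RPKM in wild type. Gp1bb made up nearly all of that sum and was called higher (0.18 ± 0.06, limma adjusted p = 0.0333). That call was lost without any 1 of libraries 2, 5, 7, 8, 11 or 12 (0.0528 to 0.0936) and within libraries 1, 2, 5 and 6 alone (0.328). Itga2b, which was not tested, stood at 0.355 ± 0.146 RPKM in null and 0.344 ± 0.0737 RPKM in wild type. Which cells the Gp1bb reads came from was not tested. Endothelial markers summed to 22.0 to 29.6 RPKM in null and 29.5 to 34.5 RPKM in wild type, and 3 of 6 fell (Cdh5, Kdr and Tek). Across all genes tested 14.6% fell and 13.8% rose, the background for each marker count given here. Of 7 erythroid markers tested, Hba-a1 and Hba-a2 being near-identical copies, 0 passed, with sums of 1069 to 1561 RPKM in null and 1147 to 2016 RPKM in wild type, and of 2 leukocyte markers tested 0 passed, with sums over the 4 listed of 5.32 to 6.75 RPKM in null and 4.29 to 5.41 RPKM in wild type. Mesenchymal markers summed to 4.55 to 9.61 RPKM in null and 5.14 to 5.74 RPKM in wild type, and Pdgfrb, 1 of 3 tested, fell (limma adjusted p = 0.0426). Pdgfrb was not called once library 1, 5, 6, 7, 8 or 12 was left out (0.0852 to 0.107), nor within either run of library numbers (0.138 and 0.155). Pallial glutamatergic markers rose in 6 of 6 cases, with sums of 409 to 446 RPKM in null and 38.3 to 150 RPKM in wild type, where library 7 was the low one and the others had at least 127 RPKM, and those of the hypothalamus and diencephalon in 4 of 4 tested, with sums of 28.8 to 35.1 RPKM in null and 2.06 to 7.22 RPKM in wild type. Nkx2-1, the fifth listed of that set, was below the filter and went the other way, with 0.295 ± 0.174 RPKM in null and 0.823 ± 0.302 RPKM in wild type. Its groups did not overlap, and 15.2% of all listed genes were lower in null in this way. The part of any of these cell types in the levels of the 4 genes was not tested.

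Most other genes of the monoamine pathway were outside the table or did not pass the test. Of 98 symbols reported here from lists of synthesis, cofactor, transport, breakdown, receptors and transcription factors, 37 were listed and 31 tested, of which 9 rose and 5 fell (3 fell without library 6). That is 45.2%, against 28.5% of all genes tested (13.8% higher and 14.6% lower); the median log2 difference of the 31 was 0.11, against -0.01 over all genes tested. Over enzymes, transporters, receptors and signalling proteins alone, 4 of 20 rose and 1 fell, a share of 25.0%, and over the transcription factors 5 of 11 rose and 4 fell, a share of 81.8%.

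The 7 cofactor genes reported here that were tested did not pass the test. The hydroxylase genes Tph1 and Tph2 for serotonin, Dbh and Pnmt for noradrenaline and adrenaline, and Hdc for histamine were not among the listed genes. Past Gch1 on the cofactor route, Pts, the next enzyme, stood at 18.9 ± 1.21 RPKM in null and 17.3 ± 2.35 RPKM in wild type (limma adjusted p = 0.322), and Spr, the last, at 9.84 ± 1.31 RPKM in null and 10.01 ± 0.795 RPKM in wild type (limma adjusted p = 0.846). Qdpr, which recycles the cofactor, stood at 26.1 ± 1.98 RPKM in null and 24.2 ± 1.83 RPKM in wild type (limma adjusted p = 0.274). Each of these was well above Gch1 in level. Cbr1, a carbonyl reductase, stood at 22.6 ± 2.83 RPKM in null and 19.6 ± 1.92 RPKM in wild type (limma adjusted p = 0.145), and it was called higher after quantile normalization (0.0492) and within libraries 7, 8, 11 and 12 (0.0358). Qdpr was called higher within libraries 7, 8, 11 and 12 (0.0417). Among the other enzymes that use the cofactor Nos3, endothelial nitric oxide synthase, was the gene tested and did not pass (-0.19 ± 0.09, limma adjusted p = 0.138).

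Among transporters 2 of 4 tested rose and 0 fell, where 13.8% of all genes tested rose and 14.6% fell. Slc18b1, a polyamine transporter of the VMAT family, stood at 8.52 ± 0.458 RPKM in null and 6.69 ± 0.433 RPKM in wild type (0.31 ± 0.06, limma adjusted p = 0.00347), in the opposite direction to Slc18a2, though it was not called within libraries 1, 2, 5 and 6 alone (0.0846). Slc29a4, a low-affinity monoamine transporter of the plasma membrane, stood at 19.1 ± 0.368 RPKM in null and 16.8 ± 0.966 RPKM in wild type (0.18 ± 0.05, limma adjusted p = 0.0213), a call lost without any 1 of libraries 2, 5 or 7 (0.0549 to 0.0643) and within each run of library numbers (0.0808 and 0.151). Slc7a5 and Slc3a2, whose products together carry tyrosine and L-DOPA into cells, had differences of -0.08 ± 0.13 and -0.14 ± 0.08 (limma adjusted p = 0.679 and 0.197). The plasma membrane transporters of dopamine, noradrenaline and serotonin (Slc6a3, Slc6a2 and Slc6a4) and the vesicular transporters Slc18a1 and Slc18a3 were not among the listed genes. Of the breakdown genes, Aldh2, an aldehyde dehydrogenase, had a difference of -0.09 ± 0.07 (limma adjusted p = 0.359).

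On the receiving side, 2 of 5 genes of dopamine signalling reported here and tested rose and 1 fell. Of all genes tested 13.8% rose and 14.6% fell. Drd2, the D2 dopamine receptor gene, stood at 0.690 ± 0.0721 RPKM in null and 1.13 ± 0.210 RPKM in wild type (-0.33 ± 0.09, limma adjusted p = 0.0208). It had 21 to 27 reads in null and 35 to 48 in wild-type libraries, and only its wild-type mean passed the filter of 1 RPKM. The Drd2 call was lost without any 1 of libraries 6, 8 or 12 (0.0508 to 0.0543) and within each run of library numbers (0.235 and 0.0735). Adcy5, the main striatal adenylyl cyclase, stood at 4.63 ± 0.439 RPKM in null and 2.55 ± 0.392 RPKM in wild type and rose (0.67 ± 0.09, limma adjusted p = 0.000577), and Ppp1r1b, which encodes the dopamine-regulated inhibitor DARPP-32, rose to a similar extent (0.73 ± 0.12, limma adjusted p = 0.00190). Of the other amine receptors Adra2a, an adrenergic receptor (0.50 ± 0.17, limma adjusted p = 0.0550), and Hrh3, a histamine receptor (-0.35 ± 0.14, limma adjusted p = 0.0869), were tested and did not pass. Adra2a passed without library 11 (limma adjusted p = 0.00123), and both passed with the number run as a term (0.0349 and 0.0420).

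**Figure D4:**
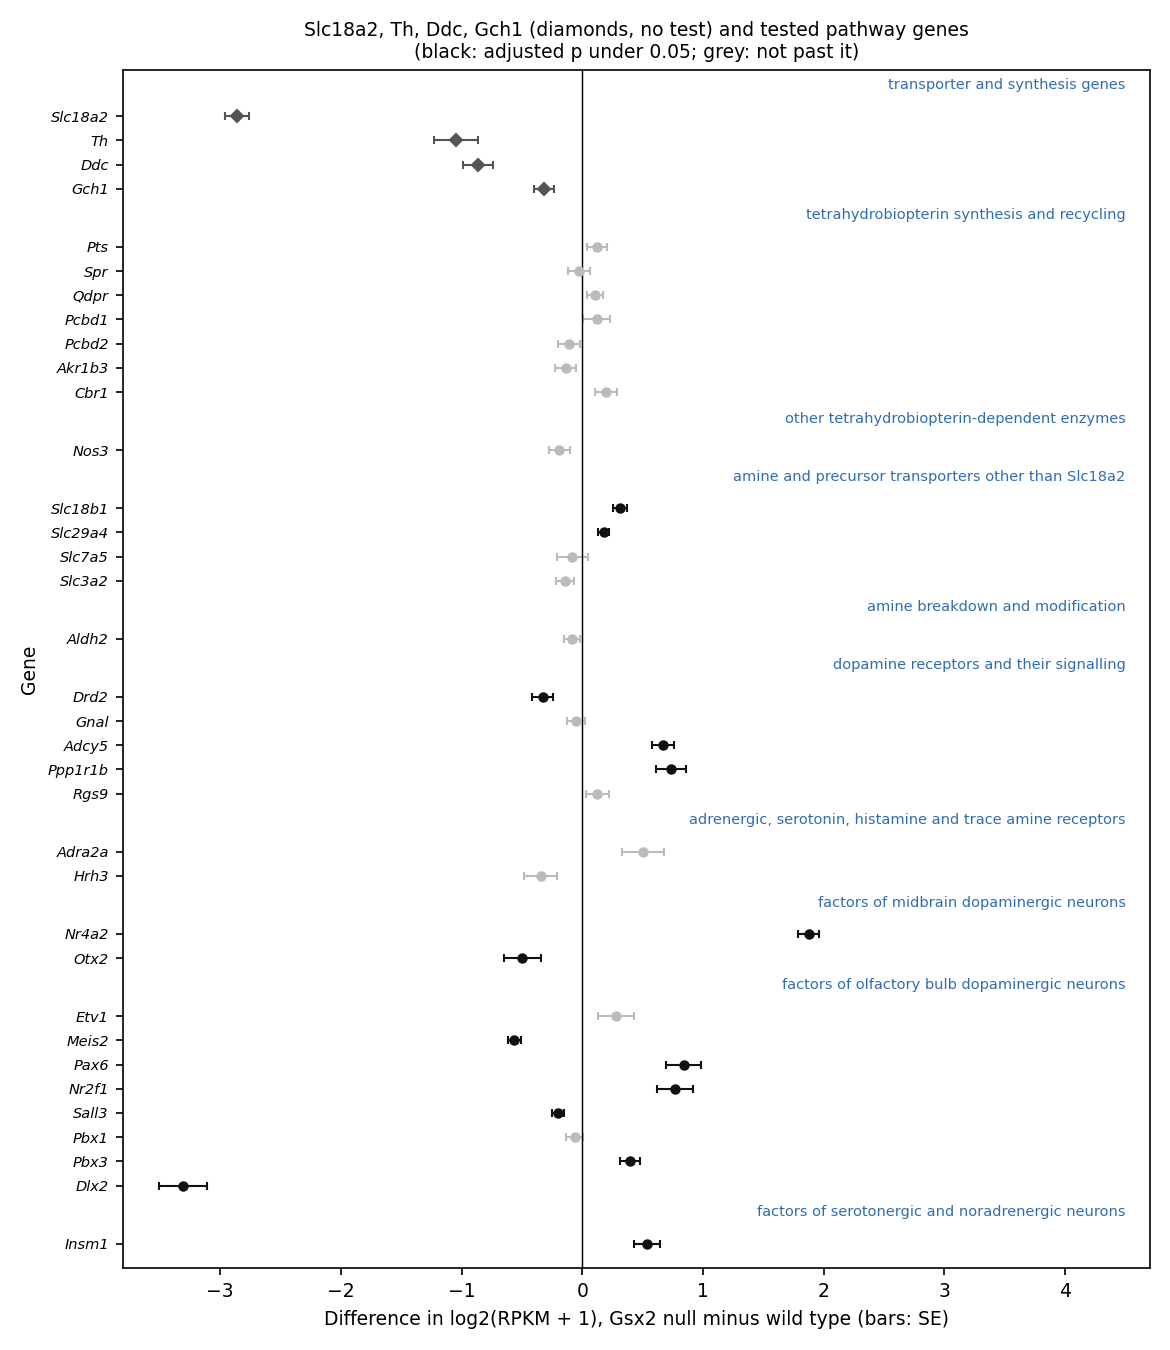
Difference in log2(RPKM + 1), Gsx2 null minus wild type, with SE, for Slc18a2, Th, Ddc and Gch1 (diamonds, described without a test) and for the reported genes of the pathway lists that were tested (circles; black passed an adjusted p of 0.05 in limma). Slc18a2 (-2.86) lies beyond every enzyme, transporter and receptor gene shown, and Dlx2 (-3.31) is the gene below it.

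Transcription factors used by dopaminergic neurons elsewhere in the brain also differed in both directions. Of the factors of midbrain dopaminergic neurons, Pitx3, Lmx1a, Lmx1b, En1, En2, Foxa1 and Foxa2 were not among the listed genes. Nr4a2, an orphan nuclear receptor that midbrain neurons need for Th and Slc18a2 expression, rose (1.88 ± 0.09, limma adjusted p = 9.31e-07). It stood at 10.5 ± 0.687 RPKM in null and 2.16 ± 0.392 RPKM in wild type, in the opposite direction to Th and Slc18a2. The part of Nr4a2 in the levels of Th and Slc18a2 was not tested. Otx2 fell (-0.50 ± 0.15, limma adjusted p = 0.0348). The Otx2 call was lost without any 1 of libraries 1, 2, 6, 7 or 11 (0.0715 to 0.0890) and within libraries 7, 8, 11 and 12 alone (0.217). Of the factors of olfactory bulb dopaminergic neurons 3 of 8 reported here rose and 3 fell, where 13.8% of all genes tested rose and 14.6% fell. Pax6 (0.84 ± 0.14, limma adjusted p = 0.00192), Nr2f1 (0.77 ± 0.15, limma adjusted p = 0.00381) and Pbx3 (0.40 ± 0.08, limma adjusted p = 0.00553) rose, though Nr2f1 was not called within libraries 1, 2, 5 and 6 alone (0.0898). Dlx2, a factor of subpallial progenitors, fell to 13.5 ± 4.60 RPKM in null, against 137 ± 19.7 RPKM in wild type (-3.31 ± 0.20, limma adjusted p = 5.32e-06). Meis2 (-0.56 ± 0.06, limma adjusted p = 0.000114) and Sall3 (-0.20 ± 0.05, limma adjusted p = 0.0134) fell by less, and Etv1 had a difference of 0.28 ± 0.15 (limma adjusted p = 0.197). Of the factors of serotonergic and noradrenergic neurons 1 was tested, Insm1, a zinc finger factor that many new neurons also express, and it rose (0.54 ± 0.11, limma adjusted p = 0.00453).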

How the data were processed

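RNA was measured by sequencing in 8 LGE libraries, 4 per genotype. Per the labels' protocols, polyadenylated RNA went into stranded dUTP libraries with 9 PCR cycles and 51 bp single-end reads. The submitters' processing notes name STAR, featureCounts, edgeR and mm10; the sources used here give neither versions nor annotation nor strand setting. The deposited table held RPKM per library and, per the file headers, the authors' log2 fold change, average log2 CPM, p-value and FDR for each gene. Their log2 fold change is positive where null is higher, which was checked on 1782 genes against RPKM.

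Columns carried the words WT or Germline and a number found in no label, so each was assigned to a genotype, Germline as null from the wording of the title of the series. Of the columns 0 were left out. Read counts had been foreseen. As the values are RPKM, genotype was fitted to log2(RPKM + 1) by limma (version 3.58.1, under R 4.3.3) with its intensity trend, two-sided and with Benjamini-Hochberg adjustment over the 11395 genes with a mean of at least 1 RPKM in either genotype; 1448 were not tested, and the threshold was 0.05. The code was tested on simulated data. RPKM steps gave whole reads for 100% of genes (tolerance 1e-06 of a read), and reads in listed genes ran from 16066545 to 18019214 in null and from 16031458 to 17512880 in wild-type libraries. Coefficients of variation from counting assume independent reads and cover counting error only.

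The 4 genes and all lists were chosen with earlier results of these data known. The text names the 4 genes, up to 4 genes per pathway list in order of adjusted p (the 2 highest by RPKM where none passed), the 3 nearest profiles and the nearest tested gene on each side of each, the 2 highest markers per cell type, and Gsx2. Others, such as further list members and untested genes, were chosen after their values were seen. A few genes of the pathway lists are not reported here and were left out of the lists' counts and medians after the results were seen. Alternatives covered the pseudocount, the filter, scaling, voom on recovered reads, the empirical Bayes step, library subsets and each library left out.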

Additional observations from a re-analysis of the deposited data

Results flagged for a closer look

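In 218 groups of 4 libraries (the 109 listed genes among the 4, the pathway and marker lists, the nearest profiles and the neighbours, in both genotypes), a library stood apart from its group by a gap above the 95% critical value of Dixon's test in 19 cases; chance alone gives about 1 group in 20. Of the 8 groups of Slc18a2, Th, Ddc and Gch1 this held for 1: wild-type library 7 had 45.3 RPKM of Slc18a2, and the other wild-type libraries 37.1 to 38.3. Without library 7 the log2(RPKM + 1) difference of Slc18a2 was -2.79 ± 0.10 (SE). Library 7 also had the highest summed level of subpallial GABAergic markers among wild-type libraries (562 RPKM) and the lowest of pallial glutamatergic markers (38.3 RPKM), whose part in the Slc18a2 value was not tested. The other cases are given as values. In null library 5, Spr had 7.89 RPKM (10.3 to 10.7 in the others), Slc7a5 15.1 (20.6 to 21.6), Slc17a7 6.38 (7.35 to 7.52), Kdr 4.86 (5.48 to 5.61) and Scgn 0.483 (0.272 to 0.297). In null library 6, U2af1 had 14.9 RPKM (15.9 to 16.04 in the others), Fignl1 18.7 (17.2 to 17.3) and the mesenchymal markers Col1a1 3.11 (1.02 to 1.27), Col1a2 2.69 (0.554 to 0.713) and Lum 0.964 (0.0206 to 0.0225). Tek had 1.26 RPKM in null library 11 (0.937 to 0.967 in the others), and Grb10 98.1 in null library 12 (84.1 to 85.8). In wild-type libraries, Gnal had 2.19 RPKM in library 1 (1.91 to 1.94 in the others), Grb10 133 in library 7 (108 to 112), and library 8 had 1.44 of Drd2 (1.01 to 1.03), 27.1 of Gad1 (29.96 to 30.4), 25.4 of Hbb-bh1 (31.1 to 32.03) and 0.0674 of Lum, which libraries 1, 2 and 7 listed at 0. With null library 6 left out, the log2(RPKM + 1) difference was -2.78 for Slc18a2, -1.05 for Th, -0.78 for Ddc and -0.29 for Gch1.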

How the results depend on the processing

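Slc18a2, Th, Ddc and Gch1 were lower in null under every alternative run. That direction is no separate support, because the same contrast chose the 4 genes and their groups did not overlap. The size of the difference followed the pseudocount. At a pseudocount of 0.1 the log2 differences of Slc18a2, Th, Ddc and Gch1 were -3.09, -1.47, -1.60 and -0.83, at 5 they were -2.21, -0.48, -0.30 and -0.086, and with voom on recovered reads -3.11, -1.54, -1.77 and -0.995. With each library left out they ran from -2.94 to -2.78 for Slc18a2, -1.21 to -0.90 for Th, -0.95 to -0.78 for Ddc and -0.35 to -0.26 for Gch1. Voom called 3318 genes, against 3242 by RPKM. A filter of 5 RPKM left Slc18a2 alone of the 4. Within libraries 1, 2, 5 and 6, 1949 genes passed, 1196 lower and 753 higher, and within libraries 7, 8, 11 and 12, 2966 passed, 1052 lower and 1914 higher, so that the balance of directions was opposite; the cause was not tested. With each library left out 2471 to 2954 genes passed, 1236 to 1587 lower and 1235 to 1627 higher, and of the other pathway genes reported 3 to 5 lower and 8 to 10 higher; 3 were lower within either run of library numbers. Genes with an interaction of genotype and number run were 2, or 3 at a pseudocount of 0.1, and 3 to 613 with each library left out (4 without library 7 or 12, 41 without 8, 613 without 2); the cause was not tested. Of 54 other genes that were tested, 12 lost a call and 5 gained one under at least 1 alternative, and none changed direction with a call. No paired analysis was possible because the columns do not carry the replicate numbers of the titles. Reads limit Ddc and Gch1, where some null libraries hold 14 or 15.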

Other observations

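Genes of the same receptor and cofactor lists that were below the filter were not tested, and their values are given as such. Htr7, a serotonin receptor gene, stood at 0.201 ± 0.0630 RPKM in null and 0.627 ± 0.0510 RPKM in wild type (SD, n = 4 each), with 9 to 22 reads in null and 42 to 51 in wild-type libraries and no overlap. Nos1, neuronal nitric oxide synthase, stood at 0.556 ± 0.0963 RPKM in null and 0.260 ± 0.0864 RPKM in wild type, with 97 to 156 reads in null and 30 to 69 in wild-type libraries. Every null library was above every wild-type library for Nos1. Across all listed genes 15.2% were lower in null without overlap, and across the genes tested 30.9% stood apart in either direction. Drd3, the D3 dopamine receptor gene, stood at 0.996 ± 0.172 RPKM in null and 0.629 ± 0.240 RPKM in wild type, and its groups overlapped. Gchfr, which encodes the feedback regulator of GTP cyclohydrolase, had 5 to 9 reads in null and 4 to 8 in wild-type libraries.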
